A study of Mus musculus with 8 samples.

Results

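The expression of 8 genes used to recognise reactive astrocytes was followed in 8 mouse brain libraries: Gfap, Vim, Nes, Synm, Serpina3n, Lcn2, Cd44 and Steap4. They were chosen by gene name as known genes of reactive astrocytes, by a rule that uses no measured value but was written with earlier results of these data known, and all 8 were found in both deposited tables, out of the 54532 genes listed in the fuller one. RNA-seq was done on brain tissue of male C57BL/6 mice on Day 21. The RS group (2 libraries, labelled cortex) received restraint stress alone, and the PTS + RS group (2 libraries, labelled cortex) received a photothrombotic stroke, an infarct made by lighting the cortex after injection of the dye Rose Bengal, together with restraint stress. In a second table, PTS + RS mice received either RGFP109 (2 libraries) or NaCl (2 libraries). The paper uses RGFP109 as an HDAC3 inhibitor and describes it as selective for the histone deacetylases HDAC1 and HDAC3. By the paper's methods, RGFP109 was given under the skin once daily for 2 weeks at 60 mg/kg. One of its figure legends gives 21 days of dosing instead, ending later than Day 21. How long the mice had been dosed at sampling is therefore uncertain. The paper calls its control vehicle, but names DMSO, a cyclodextrin and sodium acetate as the solvent of RGFP109. Whether the NaCl mice received that solvent is not stated, so drug and solvent cannot be told apart. In both the RGFP109 and the NaCl group replicate 1 is labelled cortex and replicate 2 is labelled amygdala. All mice analysed here thus had restraint stress, no unstressed or sham group was analysed here, and the sources used here do not say whether a library holds one mouse or a pool. P-values therefore measure only the spread between these libraries, which may be technical.

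Astrocytes respond to an infarct by enlarging, by building up intermediate filaments and by secreting new proteins, a state called reactive astrogliosis. Gfap encodes glial fibrillary acidic protein, the main intermediate filament protein of reactive astrocytes, and Vim (vimentin), Nes (nestin) and Synm (synemin) encode filament proteins that assemble with it. Serpina3n encodes a secreted serine protease inhibitor, and Lcn2 encodes lipocalin 2, a secreted protein that binds iron-loaded siderophores. Cd44 encodes a cell surface receptor for hyaluronan, and Steap4 encodes a membrane metalloreductase. None of the 8 is specific to astrocytes: Vim is also made by endothelial cells and microglia, Cd44 by leukocytes, Nes by progenitors and vessels, and Lcn2 by neutrophils.

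In GRCm38 coordinates of the deposited table, Gfap lies on chr11:102887336-102900912 (minus strand), Vim on chr2:13573927-13582826 (plus), Nes on chr3:87971078-87980451 (plus) and Synm on chr7:67730160-67759742 (minus). Serpina3n lies on chr12:104406729-104414329 (plus), Lcn2 on chr2:32384633-32388252 (minus), Cd44 on chr2:102811141-102901665 (minus) and Steap4 on chr5:7960457-7982213 (plus). Promoter windows of 300 bases, from 250 before to 50 after the RefSeq transcription start (GRCm38.p6), were found for all 8. They are protein-coding genes on 6 chromosomes. Serpina3n belongs to a cluster of closely related genes, so that reads shared with its relatives may have been dropped in counting.

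The windows were searched on both strands for 2 letter patterns bound by transcription factors of inflammatory signalling: the STAT pattern TTCNNNGAA, and the AP-1 pattern TGANTCA. The STAT pattern was present in 2 of the 8 windows, Gfap and Steap4, against 8.3% of all 32851 promoter windows of the same length. The AP-1 pattern was present in 0 of the 8, against 7.8% of all windows. These are matches of letters only, and say nothing of whether a factor binds there. Shown here, 5′ to 3′ on the gene's own strand, are the windows of the 2 genes that hold the STAT pattern, in capitals, and those of Serpina3n and Lcn2, which rose with Gfap in PTS + RS but hold neither pattern. The Gfap window is chr11:102897151-102897450 (minus), where the site covers bases 249 to 257 and so includes the start at base 251. The Steap4 window is chr5:7960222-7960521 (plus), where the site covers bases 135 to 143. The Serpina3n window is chr12:104406458-104406757 (plus) and the Lcn2 window is chr2:32387690-32387989 (minus).
Gfap: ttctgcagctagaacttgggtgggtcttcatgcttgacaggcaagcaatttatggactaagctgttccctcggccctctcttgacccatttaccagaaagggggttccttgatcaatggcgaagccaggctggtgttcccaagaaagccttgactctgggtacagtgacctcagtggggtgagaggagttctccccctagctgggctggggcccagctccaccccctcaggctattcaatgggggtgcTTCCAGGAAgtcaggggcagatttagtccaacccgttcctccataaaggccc
Steap4: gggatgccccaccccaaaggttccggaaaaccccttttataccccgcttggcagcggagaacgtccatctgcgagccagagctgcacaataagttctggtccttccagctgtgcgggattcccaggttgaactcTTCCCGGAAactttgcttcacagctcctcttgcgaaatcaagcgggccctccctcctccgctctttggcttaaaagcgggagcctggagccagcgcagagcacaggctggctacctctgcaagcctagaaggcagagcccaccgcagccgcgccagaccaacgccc
Serpina3n: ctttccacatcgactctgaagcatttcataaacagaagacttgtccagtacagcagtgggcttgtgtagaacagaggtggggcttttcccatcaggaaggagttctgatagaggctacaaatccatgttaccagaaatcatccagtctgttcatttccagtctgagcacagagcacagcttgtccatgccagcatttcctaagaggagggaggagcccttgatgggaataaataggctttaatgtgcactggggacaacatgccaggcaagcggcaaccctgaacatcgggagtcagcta
Lcn2: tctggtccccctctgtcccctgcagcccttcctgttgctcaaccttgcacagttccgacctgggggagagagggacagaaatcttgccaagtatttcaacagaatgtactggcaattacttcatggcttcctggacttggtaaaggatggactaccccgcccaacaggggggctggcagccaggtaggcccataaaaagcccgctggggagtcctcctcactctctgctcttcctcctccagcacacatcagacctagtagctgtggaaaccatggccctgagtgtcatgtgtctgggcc

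The 8 windows also differed in CpG content. Gfap, Serpina3n and Lcn2 held 3 CpG each, below the median of 7 over all promoter windows, and 68.6% of all windows held more. Cd44 held 6 and Vim 11. Steap4 held 16, Nes 18 and Synm 33, the most of the 8, and 7.7% of all windows held more than Synm. Whether CpG content differs between called and other genes was not examined over all tested genes. No link to the change in PTS + RS can therefore be read from these 8 windows.

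Before the results, several libraries stood apart or went against their labels. Each library held between 15902013 and 21712033 counts, with 3.59% to 4.55% on mitochondrial genes. The NaCl replicate 1 library carried markers of olfactory bulb at a summed 1293 CPM (counts scaled to the normalised library size), where the other 7 libraries (in 2 tables, normalised separately) had between 11.5 and 17.1 CPM, and markers of neural progenitors at 641 CPM, where the others had between 109 and 150. Markers of choroid plexus, whose transthyretin gene Ttr is very abundant, summed to 1482 CPM in RGFP109 replicate 1 and to between 8.02 and 13.8 CPM in the other 3 libraries of that table. In the first table they summed to 1583 and 44.1 CPM in PTS + RS and to 1781 and 3713 CPM in RS. The libraries labelled amygdala had more of the cerebral cortex markers (479 and 536 CPM) than those labelled cortex in the same table (206 and 318 CPM), and less of the amygdala markers (150 and 160 against 188 and 224 CPM). The 6 cortex markers tested were all above 0 on the log2 scale in the libraries labelled amygdala (median 0.84), while of the 6 amygdala markers tested 3 were above 0 and 3 below (median 0.18). The cortex markers therefore went against the tissue labels and the amygdala markers were divided, and these libraries are called by label and number.

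**Figure D1:**
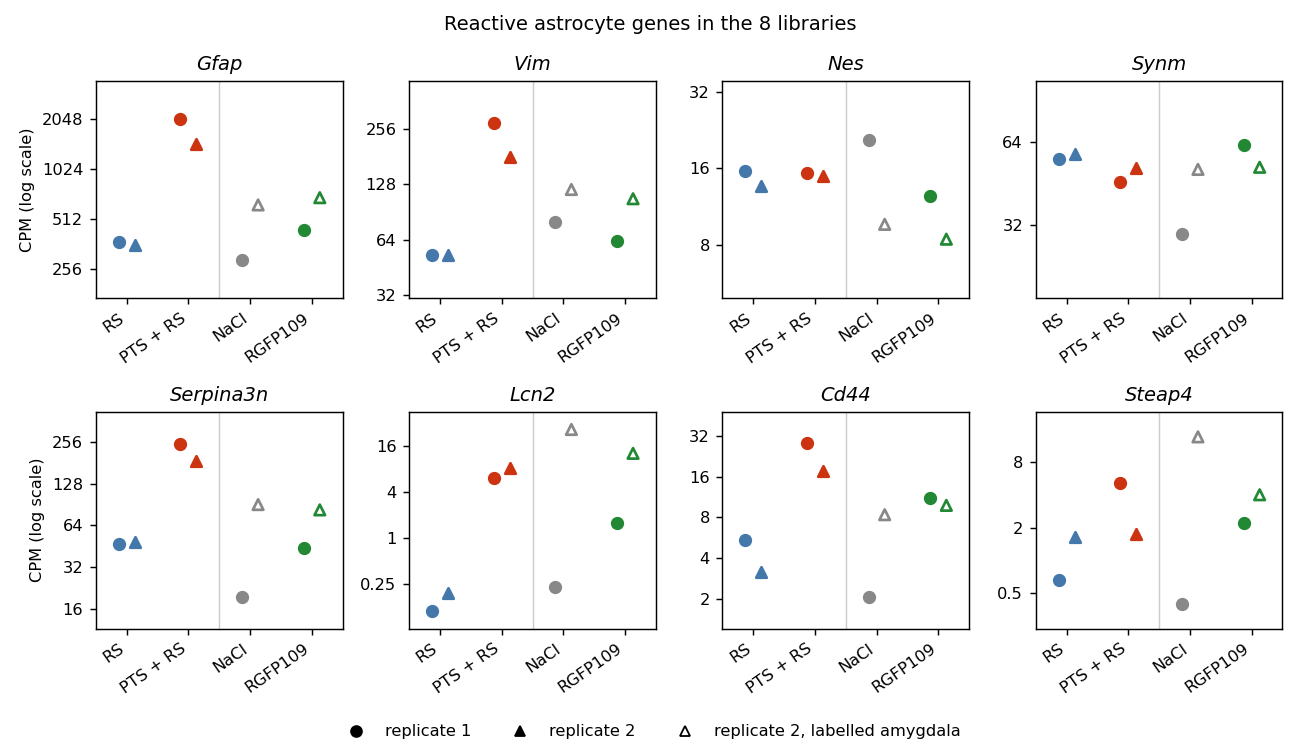
Normalised read count (CPM, log scale, one axis per gene) of the 8 reactive astrocyte genes in each library; circles are replicate 1, triangles replicate 2, open triangles the replicates labelled amygdala, and the grey line separates the tables, which were normalised separately. Both PTS + RS libraries lie above both RS libraries for 6 genes (25.7% of all tested genes), and the RGFP109 and NaCl libraries overlap for 6 genes (26.6% of all tested genes did not overlap).

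PTS + RS was compared with RS to ask which genes differ when stroke is added to the same stress. Of the reactive astrocyte genes 5 rose, namely Gfap, Vim, Serpina3n, Lcn2 and Cd44, by 4.30-fold to 5.37-fold in the group means for all but Lcn2, which was nearly absent in RS. Nes and Synm, the other 2 filament genes, were not called. Steap4 was higher on average but was not called. A gene is called here if edgeR's quasi-likelihood test gave an adjusted p under 0.05 (Benjamini-Hochberg, 17581 genes tested) with a change of 1 or more on the log2 scale, up or down. By this rule 5 of the 8 were called higher and 0 lower, against 2.21% of all tested genes called in either direction (373 higher, 16 lower). Both PTS + RS libraries were above both RS libraries for 6 of the 8 and below them for 1, where the groups did not overlap for 50.2% of all tested genes and PTS + RS was the higher for 25.7%. The median log2 fold change was 2.14 over the 8 and -0.0015 over all tested genes.

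Among the filament genes, Gfap was counted at 372 and 354 CPM in the RS libraries and at 2058 and 1452 CPM in the PTS + RS libraries. Both PTS + RS libraries were far above both RS libraries, which differed little from each other. The log2 fold change was 2.27 (SE 0.171), with an adjusted p of 0.0011 by edgeR's quasi-likelihood test. Vim was counted at 53.1 and 52.6 CPM in RS and at 274 and 180 CPM in PTS + RS. As for Gfap, PTS + RS replicate 1 was the highest, and the groups did not overlap. The log2 fold change of Vim was 2.10 (SE 0.187; adjusted p = 0.0020, edgeR). Nes, which marks progenitors and reactive cells, was counted at 15.7 and 13.6 CPM in RS and at 15.4 and 14.9 CPM in PTS + RS. The PTS + RS values lay between the RS values, and the log2 fold change was 0.05 (SE 0.143; adjusted p = 0.903, edgeR). Synm was counted at 55.6 and 57.8 CPM in RS and at 45.7 and 51.2 CPM in PTS + RS. Both PTS + RS libraries were slightly below both RS libraries, and the log2 fold change of -0.23 (SE 0.0935) was not called (adjusted p = 0.267, edgeR). The filament genes were thus split, with 2 called higher and 2 not called.

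For the secreted proteins, Serpina3n was counted at 47.0 and 48.8 CPM in RS and at 248 and 186 CPM in PTS + RS. The groups did not overlap, and the log2 fold change was 2.18 (SE 0.140; adjusted p = 0.0006, edgeR), the smallest adjusted p of the 8. Among 10 relatives of Serpina3n and Steap4, 4 could be tested and 0 were called, and Serpina3g, the only Serpina3 relative tested, was at 1.98 to 2.22 CPM in PTS + RS and at 1.01 to 1.21 CPM in RS. Lcn2 had 2 and 3 counts in the RS libraries and 104 and 136 counts in the PTS + RS libraries. It was therefore at the limit of detection in both RS libraries, while both PTS + RS libraries held clear counts. Against a floor of 3 counts in each RS library, the mean CPM of Lcn2 was at least 40.0-fold higher in PTS + RS (adjusted p = 0.0011, edgeR). The median of the 8 is the same with this bound. Markers of neutrophils, which also make Lcn2, summed to at most 0.525 CPM in these 4 libraries, none of the 6 markers exceeded 3 counts in any of them, and none could be tested.

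For the membrane proteins, Cd44 was counted at 5.41 and 3.15 CPM in RS and at 28.4 and 17.6 CPM in PTS + RS. The groups did not overlap, and the log2 fold change was 2.41 (SE 0.314; adjusted p = 0.0090, edgeR). Steap4 was counted at 0.662 and 1.64 CPM in RS and at 5.20 and 1.74 CPM in PTS + RS. Here one PTS + RS library was high and the other was barely above RS replicate 2. The log2 fold change of 1.61 (SE 0.618) was not called (adjusted p = 0.238, edgeR). It rested on PTS + RS replicate 1: without PTS + RS replicate 2 it was 2.19 and called, and without PTS + RS replicate 1 it was 0.61 and not called. The 5 other calls held without each library in turn, with 5 or 6 of the 8 called and a median log2 fold change between 1.86 and 2.38.

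Higher counts in tissue RNA can come from more cells or from more RNA per cell, which cannot be told apart in these bulk libraries. Markers of homeostatic astrocytes, which astrocytes express without injury, summed to 7128 and 7022 CPM in RS and to 8997 and 8364 CPM in PTS + RS, a ratio of 1.23. Set against this sum in each library, the ratio of PTS + RS to RS was 3.93 for Gfap, 3.48 for Vim, 3.68 for Serpina3n, 38.8 for Lcn2 and 4.35 for Cd44, and for these 5 genes both PTS + RS libraries stayed above both RS libraries. On the same scale the ratio was 2.4 for Steap4, with overlap, and 0.844 for Nes and 0.699 for Synm. For Nes and Synm both PTS + RS libraries were below both RS libraries on this scale, whose divisor is itself higher in PTS + RS. Before scaling, Nes overlapped, with a log2 fold change of 0.05. The share of all tested genes that do not overlap on this scale was not computed. The Lcn2 ratio has counts of 2 and 3 in its denominator, so that its size is uncertain. No test was run on these ratios.

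Other genes linked to reactive astrocytes were read from lists written from general knowledge. Of 7 further pan-reactive genes, which rise in many kinds of injury, 3 were called higher: Cxcl10, a chemokine (log2 fold change 4.08), Osmr, a receptor for oncostatin M (1.88), and S1pr3, a receptor for sphingosine 1-phosphate (1.60). Their list had a median of 1.39. Of 11 A1-type genes, described after inflammation, 4 were called higher with a list median of 1.17: Ggta1 (2.06), the guanylate-binding protein gene Gbp2 (1.82), Srgn (1.63) and the MHC class I gene H2-D1 (1.48). Of 11 tested A2-type genes, described after ischaemia, 3 were called higher with a list median of 0.80: Tgm1, a transglutaminase (4.10), Ptx3, a secreted pentraxin (2.32), and Cd14, a co-receptor for bacterial lipopolysaccharide (1.99). These counts depended on single libraries: without PTS + RS replicate 2 they were 5, 8 and 4, and without RS replicate 1 they were 2, 2 and 1, for the pan-reactive, A1-type and A2-type genes, and without RS replicate 2 the A1-type count was 2 and the A2-type count 2. The lists were not compared with each other by a test. Srgn, Cd14 and H2-D1 are also expressed by microglia.

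The homeostatic markers moved less. Of 12 tested, 1 was called higher, Aqp4, the water channel of astrocyte endfeet (log2 fold change 1.01, SE 0.145), and the list median was 0.22. Aqp4 was not called without PTS + RS replicate 1 or either RS library, nor by limma-voom or with a replicate block on all 4 libraries, and in each of these fits 0 of the 12 were called. The glutamate transporter gene Slc1a3 (0.59) and the connexin 43 gene Gja1 (0.58) had an adjusted p of 0.0149 and 0.0273 (edgeR) but were below the fold limit. Of 9 genes of the STAT3 axis, which drives Gfap expression in reactive astrocytes, 1 was called, Osmr, and 2 without PTS + RS replicate 2. Stat3 itself was 0.48 (adjusted p = 0.0508, edgeR) and Socs3, a target and inhibitor of the pathway, 1.27 (SE 0.299; adjusted p = 0.0723, edgeR). Of 8 other intermediate filament genes, 0 were called, with a median of -0.11, from -0.35 for Des (desmin) to 1.05 for Prph (peripherin). Of 10 genes for partners of Lcn2 and Cd44, 1 was called, Spp1, which encodes osteopontin, a ligand of CD44, with a log2 fold change of 5.91 (SE 0.367). The Lcn2 receptor gene Slc22a17 was -0.44 and not called.

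**Figure D2:**
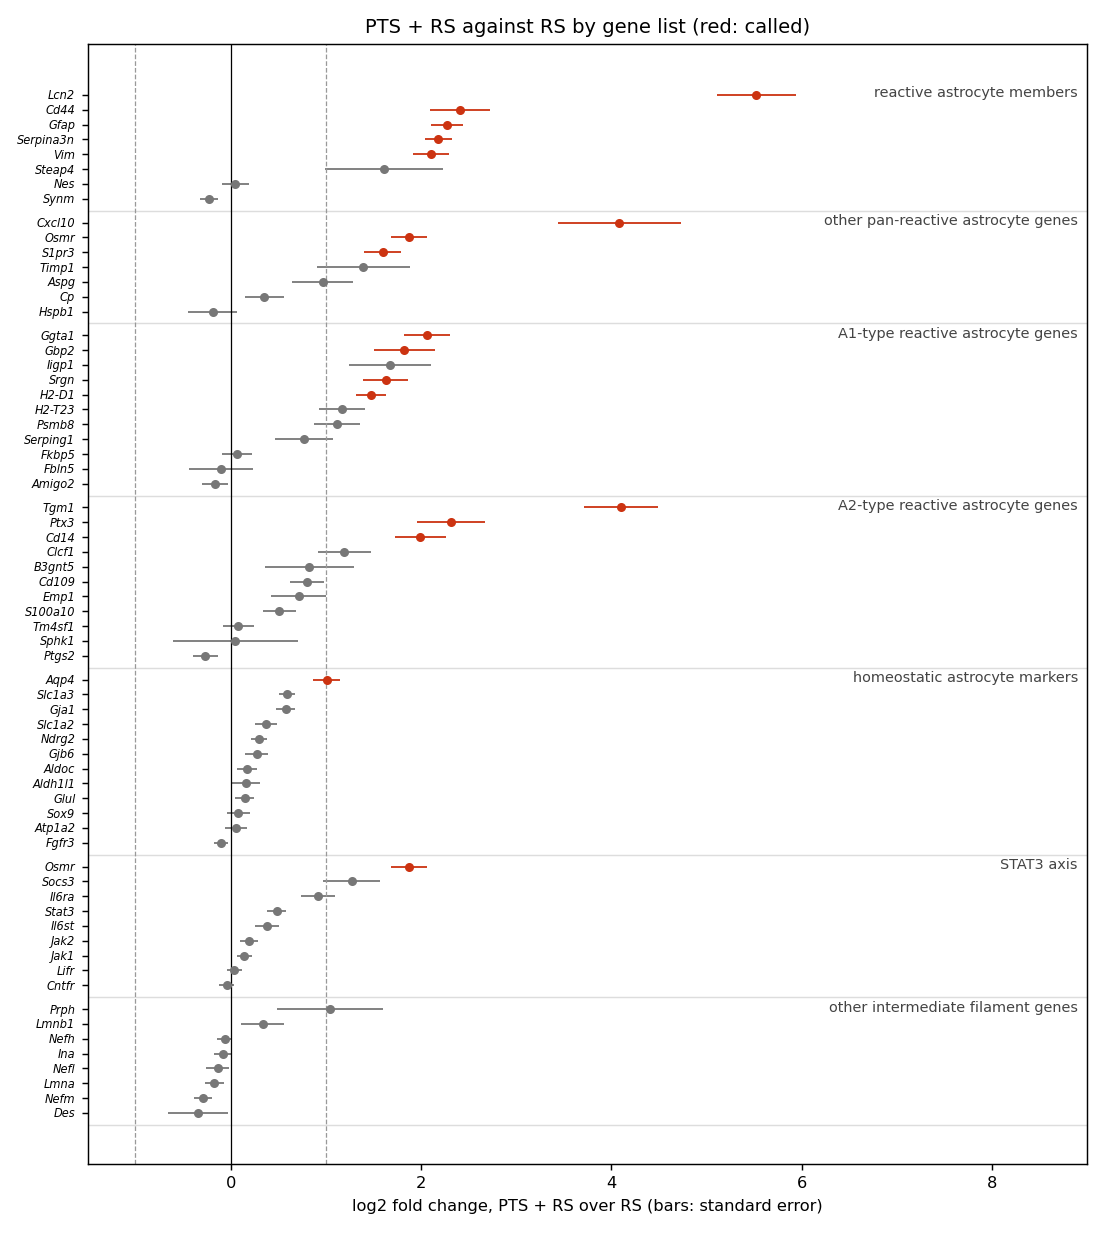
Log2 fold change of PTS + RS over RS (points) with its standard error (bars) for the reactive astrocyte genes and the tested genes of related lists; red points were called, dashed lines mark a log2 fold change of 1 in size. Gfap, Vim, Serpina3n, Cd44 and Lcn2 are called and Nes and Synm lie near 0; the Lcn2 value is fitted against 2 and 3 counts and is no measure of size.

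Markers of microglia moved in the same libraries. All 8 were called higher, with a median log2 fold change of 1.88, and they summed to 281 and 256 CPM in RS and to 1115 and 932 CPM in PTS + RS. The PTS + RS library with the higher sum was replicate 1. It was also the higher of the pair for Gfap, Vim, Nes, Serpina3n, Cd44 and Steap4, and the lower for Synm and Lcn2. The share of all tested genes that were higher in this library was not computed. The lists for oligodendrocytes, neurons, endothelial cells, pericytes, fibroblasts, ependyma, cerebral cortex, amygdala, olfactory bulb and choroid plexus had 0 called genes each, and of 7 progenitor markers 2 were called, Mki67 (1.57) and Top2a (2.47), both genes of cell division. Without PTS + RS replicate 1, the one of the pair with choroid plexus RNA, 5 of 5 choroid plexus markers were called lower, and 7 of the 8 microglia markers and 5 of the reactive astrocyte genes were still called higher. The part of microglia, and of the unequal choroid plexus RNA, in the values of the reactive astrocyte genes was not tested.

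**Figure D3:**
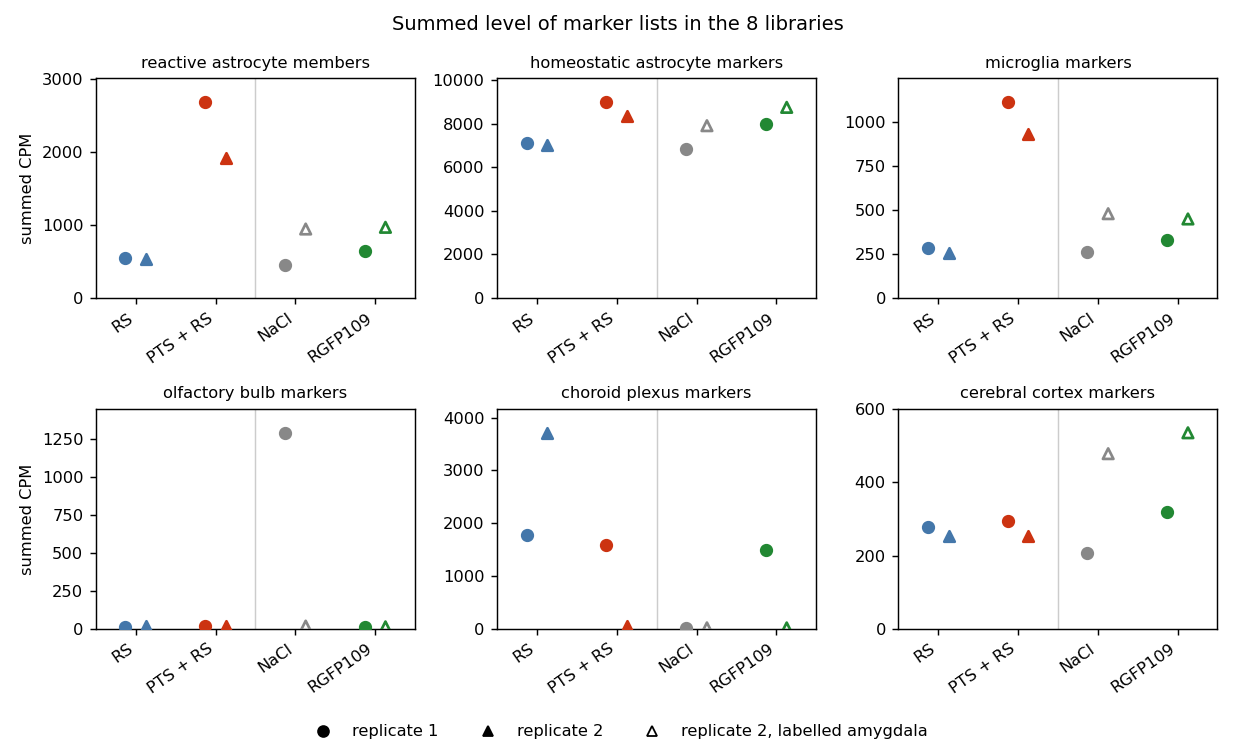
Summed CPM (linear scale from 0) of the reactive astrocyte genes and of 5 marker lists in each library; circles are replicate 1, triangles replicate 2, open triangles the replicates labelled amygdala, and the grey line separates the tables. For the reactive astrocyte genes and the microglia markers both PTS + RS libraries lie above both RS libraries, and the olfactory bulb markers are high in NaCl replicate 1 alone.

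Between genes, levels were compared as deposited FPKM, which divides by gene length. Gfap was the highest of the 8 in each of the 8 libraries and made up between 61.5% and 71.5% of their summed FPKM. Its FPKM was 85.6 ± 2.88 (SD, n = 2) in RS and 413 ± 99.6 in PTS + RS. Serpina3n was next, at 23.1 ± 0.647 in RS and 104 ± 20.9 in PTS + RS, followed by Vim at 11.1 ± 0.0644 and 47.5 ± 13.8, and this order held in every library but NaCl replicate 1, where Vim was above Serpina3n. Synm was 7.11 ± 0.201 in RS and 6.07 ± 0.508 in PTS + RS. The remaining 4 were low: in RS, Nes was 2.27 ± 0.228, Cd44 0.629 ± 0.233, Steap4 0.363 ± 0.219 and Lcn2 0.0569 ± 0.0212. In PTS + RS their order changed, with Cd44 at 3.37 ± 1.11, Lcn2 at 2.69 ± 0.562, Nes at 2.34 ± 0.0418 and Steap4 at 1.09 ± 0.766. The Lcn2 and Nes values of PTS + RS overlapped, as did those of Lcn2 and Cd44. The FPKM of Gfap was 8.44 and 9.07 times that of Vim in PTS + RS and 7.87 and 7.57 times in RS.

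RGFP109 was compared with NaCl to ask what this inhibitor changes in PTS + RS mice. With NaCl, the FPKM of Gfap was 67.9 in replicate 1 and 147 in replicate 2. In the other table it was 343 to 483 in PTS + RS and 83.5 to 87.6 in RS. The Gfap FPKM of both NaCl libraries was thus below that of both PTS + RS libraries. These libraries are not alike. Both PTS + RS libraries are labelled cortex, NaCl replicate 2 is labelled amygdala, and NaCl replicate 1 carries olfactory bulb markers. Lcn2 was divided, at 0.0857 and 9.95 with NaCl against 2.29 to 3.09 in PTS + RS. The cause of this was not tested. None of the reactive astrocyte genes was called, and for 6 of the 8 the groups overlapped, so that 2 of the 8 had groups that did not overlap, against 26.6% of all tested genes. Cd44 and Synm were higher in both RGFP109 libraries than in both NaCl libraries but were not called. The 2 NaCl libraries differed from each other far more than the RGFP109 libraries did for Serpina3n, Lcn2, Cd44 and Steap4. By edgeR's quasi-likelihood test 0 of the 8 were called, against 0% of the 17565 genes tested, where 88 genes were higher and 118 lower at an unadjusted p under 0.05, and DESeq2 and limma-voom called 0 as well. The adjusted p of each of the 8 was 0.9997, and 0 of them had an unadjusted p under 0.05.

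Gfap was counted at 290 and 622 CPM in NaCl replicates 1 and 2 and at 439 and 688 CPM in RGFP109 replicates 1 and 2. In both groups replicate 2 was higher, and the groups overlapped (log2 fold change 0.31, SE 0.446). Vim was counted at 79.5 and 120 CPM with NaCl and at 62.7 and 107 CPM with RGFP109. These values also overlapped (-0.23, SE 0.346). Nes was 20.8 and 9.62 CPM with NaCl and 12.4 and 8.41 CPM with RGFP109. For Nes the highest library was NaCl replicate 1, the one with the progenitor and olfactory bulb markers, and the log2 fold change was -0.55 (SE 0.448). Synm was 29.9 and 50.8 CPM with NaCl and 62.1 and 51.7 CPM with RGFP109. NaCl replicate 1 was the low library, while the other 3 lay close together (log2 fold change 0.49, SE 0.302).

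Serpina3n was 19.5 and 90.3 CPM with NaCl and 43.7 and 82.6 CPM with RGFP109. The RGFP109 values lay between the NaCl values (log2 fold change 0.20, SE 0.754). Lcn2 had 4 and 482 counts with NaCl and 25 and 273 counts with RGFP109, or 0.228 and 26.2 CPM against 1.59 and 12.8 CPM. Both libraries labelled amygdala were high and both labelled cortex were low, so that the fitted difference between treatments (-0.87, SE 1.81) was smaller than its error. Neutrophil markers summed to 1.69 CPM in NaCl replicate 2 and to between 0.514 and 1.01 CPM in the other 3 libraries. Cd44 was 2.05 and 8.37 CPM with NaCl and 11.1 and 9.81 CPM with RGFP109, and only NaCl replicate 1 stood apart (log2 fold change 1.00, SE 0.672). Steap4 was 0.398 and 13.8 CPM with NaCl and 2.22 and 4.02 CPM with RGFP109. As for Serpina3n and Lcn2, the NaCl libraries enclosed the RGFP109 libraries (-1.18, SE 1.40).

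Since tissue label and replicate number are the same factor in these 2 groups, RGFP109 was also set against NaCl within each number, with single libraries and no test. In replicate 1 the log2 ratio was above 0 for 6 of the 8 genes, at 0.60 for Gfap, 1.05 for Synm, 1.16 for Serpina3n, 2.33 for Lcn2, 2.38 for Cd44 and 2.20 for Steap4, and below 0 for Vim (-0.34) and Nes (-0.73). In replicate 2 it was closer to 0 for all 8: it was 0.15 for Gfap, -0.17 for Vim, -0.19 for Nes, 0.03 for Synm, -0.13 for Serpina3n and 0.23 for Cd44, with Lcn2 (-1.03) and Steap4 (-1.75) below 0. Ratios were smaller in replicate 2 over all tested genes too, with a median size of 0.166 against 0.339 in replicate 1. Serpina3n, Lcn2 and Steap4 therefore had opposite signs in the 2 numbers, as had 51.4% of all tested genes. The ratios of replicate 1 all rest on NaCl replicate 1, with its olfactory bulb RNA, and on RGFP109 replicate 1, with its choroid plexus RNA. The part of either in them was not tested. Without NaCl replicate 1, Cd44 had a log2 fold change of 0.31 and Synm of 0.16.

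**Figure D4:**
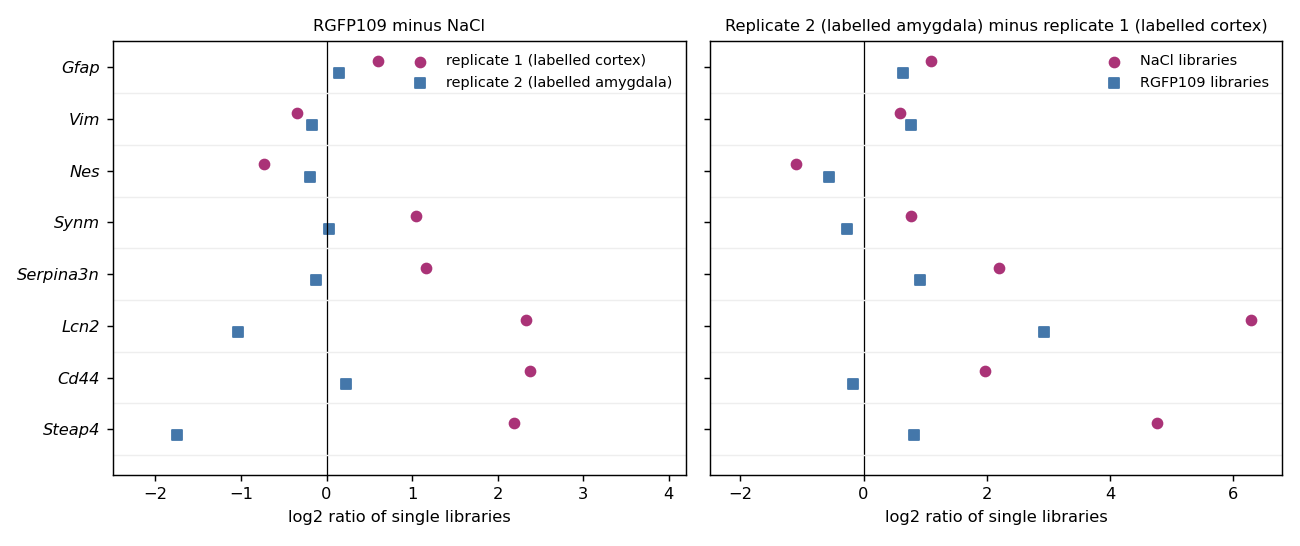
Log2 ratio of single libraries for the 8 genes, RGFP109 minus NaCl within each replicate number (left) and replicate 2 minus replicate 1 within each treatment (right). On the left Serpina3n, Lcn2 and Steap4 lie on opposite sides of 0; on the right Gfap, Vim, Serpina3n, Lcn2 and Steap4 lie above 0 and Nes below 0 in both treatments.

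The related lists were not called for RGFP109 either. The median log2 fold change was -0.37 over the 7 further pan-reactive genes, from -0.84 for Cxcl10 to 0.06 for S1pr3, -0.29 over the A1-type genes and -0.28 over the A2-type genes, and 0.09 over the homeostatic astrocyte markers, whose sum was 6848 and 7905 CPM with NaCl and 7988 and 8747 CPM with RGFP109. The microglia markers summed to 258 and 479 CPM with NaCl and to 329 and 449 CPM with RGFP109, with the higher value in replicate 2 of both groups, as for Gfap, Vim, Serpina3n, Lcn2 and Steap4.

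The 2 libraries labelled amygdala were then compared with the 2 labelled cortex in the same table, with one RGFP109 and one NaCl library on each side. Gfap, Vim, Serpina3n, Lcn2 and Steap4 were higher in both libraries labelled amygdala, and Nes was lower in both, while Synm and Cd44 overlapped. None passed the test. By edgeR's quasi-likelihood test 0 of the 8 were called, against 0% of the 17565 genes tested, where 1197 genes were higher and 773 lower at an unadjusted p under 0.05. The 4 libraries of this comparison are those already given, and the groups did not overlap for 6 of the 8 genes, against 44.0% of all tested genes.

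The largest difference was that of Lcn2, whose log2 fold change was 4.44 (SE 0.870; adjusted p = 0.289, edgeR), followed by Steap4 at 2.77 (SE 0.974; adjusted p = 0.420, edgeR) and Serpina3n at 1.45 (SE 0.400; adjusted p = 0.342, edgeR). Gfap was 0.85 (SE 0.254) and Vim 0.67 (SE 0.177), with adjusted p of 0.369 and 0.333 (edgeR), and Nes was -0.88 (SE 0.304; adjusted p = 0.415, edgeR). Synm was 0.16 (SE 0.362) and Cd44 0.47 (SE 0.765). Within NaCl the log2 ratio of replicate 2 to replicate 1 was 6.29 for Lcn2, 4.77 for Steap4, 2.20 for Serpina3n, 1.10 for Gfap and 0.59 for Vim. Within RGFP109 it was 2.92 for Lcn2, 0.83 for Steap4, 0.92 for Serpina3n, 0.65 for Gfap and 0.77 for Vim, the same direction for all 5. The calls differed between tools, and the values differed with the libraries used. On the same 4 libraries DESeq2 called Serpina3n and Lcn2 higher, among 267 genes higher and 82 lower in all. Without RGFP109 replicate 1, the only library left with the cortex label was NaCl replicate 1, which carries olfactory bulb markers. The log2 fold change was then 1.18 for Gfap, 2.15 for Serpina3n, 6.37 for Lcn2, 2.15 for Cd44, 4.45 for Steap4 and -1.20 for Nes. Without NaCl replicate 1, the only library left with the cortex label was RGFP109 replicate 1, which carries choroid plexus markers. The log2 fold change was then 0.59 for Gfap, 1.00 for Serpina3n, 3.62 for Lcn2, -0.27 for Cd44, 2.00 for Steap4 and -0.45 for Nes.

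The related lists had a median log2 fold change of 0.89 for the further pan-reactive genes, with 7 of 7 above 0, from 0.11 for S1pr3 to 1.33 for Timp1, an inhibitor of metalloproteinases. It was 0.61 for the A1-type genes, 0.61 for the A2-type genes, 0.02 for the homeostatic astrocyte markers and 0.62 for the microglia markers, with 0 called in each. The cerebral cortex markers had a median of 0.84 in the same libraries, and their part in these values was not tested.

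Across all 8 libraries, centred within each table, the profile of Gfap was compared with those of 16946 genes by the root mean square difference on the log2 scale. Among the nearest were Laptm5 (0.115), Csf3r (0.120), Havcr2 (0.125) and Adgre1 (0.135), genes known from microglia and other myeloid cells, where the median over all genes was 0.907. Of the reactive astrocyte genes, Vim (0.267) was at place 56, Serpina3n (0.293) at place 76 and Cd44 (0.484) at place 265. Synm (0.93), Nes (1.05), Steap4 (1.05) and Lcn2 (1.72) were farther from Gfap than the median gene. The measure also grows with the size of a change, so that a gene moving with Gfap but by more is scored as far. Lcn2, at the limit of detection in RS, rose with Gfap in PTS + RS. These are descriptions over 8 libraries that fall into 4 groups.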

How the data were processed

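RNA-seq libraries of mouse brain were analysed from the deposited tables. Per the labels and the study's methods, the authors aligned reads to GRCm38 with STAR 2.4.0 and counted reads per gene with HTSeq 0.6.1. The deposited counts per gene are not normalised, and the deposited FPKM values are these counts divided by gene length and library size. Sources differ on the library kit, so that strandedness is uncertain. The authors' own fold changes and p-values were deposited beside the counts and were not used, nor were 8 columns of a normalised signal. The 28229 genes of the RGFP109 table were matched by coordinates to the 54532 of the other. Groups were taken from the labels. The 8 genes and the context lists were chosen with earlier results of these data known. The text names all 8 genes, for the context lists the called genes (up to 4 a list) or the largest and smallest change, and profiles among the 5 nearest to Gfap, of which 1 is not reported here; of the lists, not all such genes are printed for RGFP109 and for the tissue labels, and Slc1a3, Gja1, Stat3, Socs3, Slc22a17 and Serpina3g were added after their values were seen.

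Genes kept by filterByExpr were tested within each table with edgeR 4.0.16 (TMM, quasi-likelihood F test, Benjamini-Hochberg) in R 4.3.3; the standard error is the log2 fold change divided by the square root of F. CPM are counts scaled to the TMM-normalised library size, and ratios of single libraries used a prior count of 2. Levels were set against the other table only for marker sums of NaCl replicate 1 and, as FPKM, for Gfap and Lcn2. Profiles were compared as log2(CPM + 0.1). Alternatives were DESeq2 1.42.0, limma-voom (limma 3.58.1), DESeq2 size factors in edgeR, no filter, a replicate block, and leaving out each library; the fits were checked on simulated data. Depth was 15902013 to 21712033 counts per library. The biological coefficient of variation was 11.4% for PTS + RS and RS but 32.1% for RGFP109 and NaCl. The latter was fitted by treatment alone, so it includes the difference between the tissue labels. The spread between libraries thus limits the precision more than depth, except for Lcn2, Steap4 and, in RS with 98 and 50 counts, Cd44. Sequences are RefSeq promoter windows of GRCm38.p6, and tables and plots were made with Python 3.11.15, pandas 2.3.3 and matplotlib 3.10.9. Protein sequences were not used here.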

Additional observations from a re-analysis of the deposited data

Results flagged for a closer look

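For 3 genes RGFP109 and NaCl differed in opposite directions in the 2 replicate numbers, each number having one library per treatment and its own tissue label. The log2 ratio of RGFP109 to NaCl was 1.16 in replicate 1 and -0.13 in replicate 2 for Serpina3n, 2.33 and -1.03 for Lcn2, and 2.20 and -1.75 for Steap4. The difference between the numbers was not tested, and 51.4% of all tested genes also had opposite signs. The replicate 1 ratios share the NaCl library that carries olfactory bulb markers and the RGFP109 library that carries choroid plexus markers.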

How the results depend on the processing

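With 2 libraries per group, leaving one out leaves a lone library that is assumed to vary like the others. For PTS + RS against RS, 5 genes were called higher and 0 lower by DESeq2, limma-voom, DESeq2 size factors and the replicate block, and 6 higher with no filter on low counts, when Steap4 (1.60) was added. Over all genes, no filter gave 604 higher and 155 lower, and leaving out one library gave 197 to 637 higher and 7 to 190 lower. DESeq2 gave 35 lower. With a replicate block 443 were higher and 32 lower; same-numbered libraries did not deviate together in this pair of groups (correlation 0.04), so that they share only a number. The Nes value ranged from -0.054 to 0.16 when one library was left out.

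For RGFP109 against NaCl the same-numbered libraries correlated by 0.28, the number being also the tissue label. The replicate block, and each other setting listed in the methods, called 0 of the 8 genes; over all genes, leaving out one library gave 0 to 8 lower. Signs turned in 12 cases. With the replicate block Lcn2 was 0.17, and with limma-voom Lcn2 was 0.91 and Steap4 0.32. When one library was left out, Gfap ranged from -0.15 to 0.97, Vim from -0.67 to 0.10, Nes from -0.99 to 0.10, Serpina3n from -0.52 to 1.71, Lcn2 from -3.05 to 4.96 and Steap4 from -2.13 to 2.96. NaCl replicate 1, left out, turned Gfap, Nes (0.10) and Serpina3n. NaCl replicate 2 turned Vim (0.10), Lcn2 and Steap4, RGFP109 replicate 2 turned Gfap (-0.05) and Serpina3n (-0.33), and RGFP109 replicate 1 turned Vim (0.10).

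For the libraries labelled amygdala against those labelled cortex, DESeq2 called 2 of the 8 higher, and 267 genes higher and 82 lower in all; no filter called 13 genes higher. Leaving out one library gave 0 to 5 of the 8 higher and 0 to 1 lower, and over all genes 0 to 1369 higher and 0 to 976 lower. Without RGFP109 replicate 1 it was 5 and 1 of the 8, and without NaCl replicate 1 it was 2 and 0, with Synm at -0.26 and Cd44 at -0.27; their full ranges were -0.26 to 0.78 and -0.27 to 2.15. With treatment as a replicate block 0 were called (correlation 0.017). Without RGFP109 replicate 1 the lone library labelled cortex was NaCl replicate 1, with its olfactory bulb markers. Without NaCl replicate 1 it was RGFP109 replicate 1, with its choroid plexus markers. The cause of these changes was not tested. Lcn2 in RS, at 2 and 3 counts, is the value most limited by depth.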
